A study of Mus musculus with 6 samples.

Results

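Chemokines are small secreted proteins that direct cell movement, and in mouse liver on CDAHFD 16 of 23 tested ligands and 13 of 16 tested receptors were called higher than on normal diet, as were 28.5% of all genes tested. The genes described here are those whose symbol has the form of a chemokine ligand (Ccl, Cxcl, Xcl, Cx3cl), a signalling receptor (Ccr, Cxcr, Xcr, Cx3cr) or an atypical receptor (Ackr) and that had at least 10 reads summed over the 6 libraries. This rule gave 52 genes, 31 ligands and 21 receptors, of 60 matching symbols and 18090 genes of the table with at least 10 reads. The series holds 3 liver libraries from mice on CDAHFD and 3 from mice on a normal diet, and the messenger RNA of each was sequenced. CDAHFD stands for a high-fat diet without choline, with defined amino acids in place of protein, that is fed to rodents to produce fatty, inflamed and scarred liver. The labels give no strain, sex, age or length of feeding, and name no treatment other than the diet. Nor do they state whether the libraries come from separate animals, and the spread behind each p-value may be technical.

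Chemokines are grouped by the spacing of their first cysteines into CC, CXC, XC and CX3C classes. They bind G protein-coupled receptors on leukocytes and on some tissue cells, and set up gradients along which those cells crawl. In injured liver, Kupffer cells (the resident macrophages), stellate cells, endothelium and hepatocytes are known sources, and blood monocytes, neutrophils and lymphocytes carry most of the receptors. Atypical receptors bind chemokines without the usual signal and remove or store them.

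Library totals ran from 21986215 to 25628531 reads. Levels are CPM, read counts scaled to a common library size by TMM, which allows for a few genes taking up many reads. Levels are compared between genes only in TPM, the deposited values that allow for gene length. Changes are given on the log2 scale, CDAHFD over normal diet, ± SE with n = 3 libraries per diet. They come from edgeR's quasi-likelihood test over 14215 genes with Benjamini-Hochberg adjustment, and a gene was called at an adjusted p under 0.05. Other scalings moved the median of all genes by 0.32 (total counts) to 0.45 (hepatocyte markers) on the log2 scale, and changes smaller than that are given with this limit.

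Of the 52 members, 35 had their lowest CDAHFD library above their highest normal diet library, 2 lay below without overlap, and 15 overlapped. Among all genes with at least 10 reads, 30.5% were higher without overlap and 23.5% lower. The test was run on 39 members, and 13 had too few reads for it. It called 29 members higher and 2 lower, where 28.5% of all genes tested were called higher and 23.5% lower, and 8 did not pass. A change of at least 4-fold upward was called in 21 members, and in 8.29% of all genes tested. Of the 39, 16 were above the count filter in every CDAHFD library but not in every normal diet library. Their normal diet libraries alone would not have let them into the test, and 9 were above the filter in no normal diet library. Of the 22 members that were above the count filter in every normal diet library, 14 rose, 2 fell and 6 did not pass. The share called among the 12536 genes above the filter in every normal diet library was not computed, so these counts have no matching share. The median log2 change over all 31 ligands was 2.06, or 1.82 with genes at 0 on normal diet set to their lower bound, and over all 21 receptors 1.99 or 1.92. The median of all counted genes in the same unfiltered fit was 0.19. In bulk tissue, more cells of a type and more RNA per cell cannot be told apart, and this holds for every value below.

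**Figure D1:**
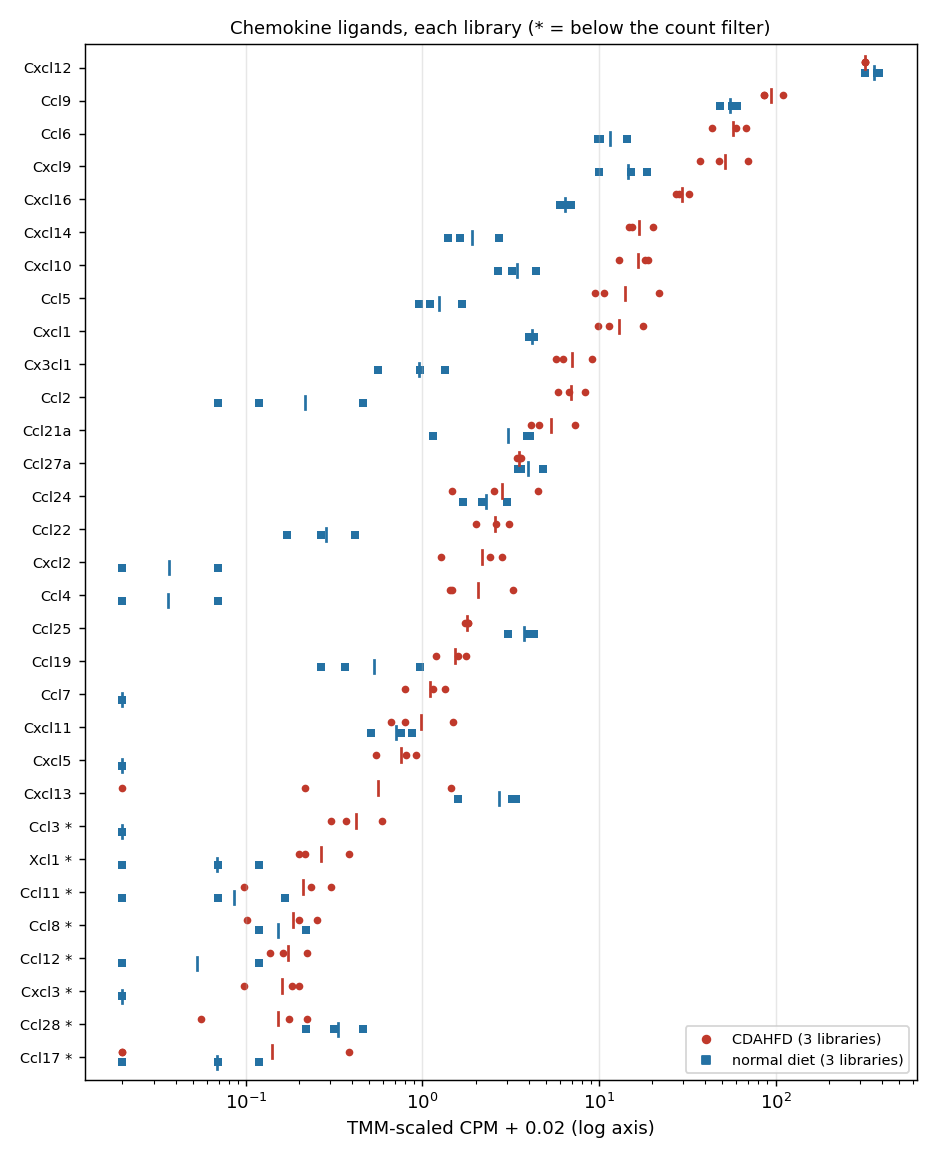
CPM of the 31 ligands in each library (log axis, 0.02 added so that a count of 0 can be drawn), with CDAHFD in red above normal diet in blue and a bar at each mean. The groups lie apart for most ligands, while Cxcl12, Ccl27a, Ccl24, Cxcl11, Ccl8, Ccl11, Ccl17 and Ccl28 overlap and Ccl25 and Cxcl13 lie lower on CDAHFD.

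The monocyte attractants Ccl2 and Ccl7 and their receptor Ccr2 rose, and all had very low levels on normal diet. Ccl2 (ENSMUSG00000035385), the main ligand that draws monocytes out of bone marrow, had 6.72, 8.33 and 5.81 CPM in CDAHFD livers, against 0.442, 0.098 and 0.05 CPM in normal diet livers. The groups lay far apart, and the change was 5.10 ± 0.42 (adjusted p = 2.36e-06), or 6.45 without normal diet replicate 1, which held 9 of the 12 reads of that group. Ccl7, a second Ccr2 ligand, was counted 28, 37 and 20 times in CDAHFD livers and 0 times in every normal diet liver. It was at least 22-fold higher on CDAHFD, taking 3 reads over the normal diet group as the limit of detection (adjusted p = 8.74e-05). Ccl12, a further Ccr2 ligand of the mouse, had 5, 4 and 3 reads on CDAHFD and 0, 2 and 0 on normal diet, too few for the test, with a ratio of 4.66 (95% exact interval 1.04 to 42.8, which covers counting error only). The receptor Ccr2 (ENSMUSG00000049103) itself had 14.4, 17.5 and 12.8 CPM in CDAHFD livers, against 0.982, 0.931 and 0.80 CPM in normal diet livers. Its libraries agreed closely within each diet, and it rose by 4.04 ± 0.20 (adjusted p = 9.95e-08).

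Ccr1, a receptor of monocytes, macrophages and neutrophils, and its tested ligands rose too. Ccr1 had 100, 113 and 77 reads on CDAHFD and 1, 1 and 3 on normal diet, a change of 5.40 ± 0.40 (adjusted p = 1.31e-06), and 6.09 without normal diet replicate 3. The Ccr1 ligands Ccl6 and Ccl9, which rodents have and humans lack, had the highest TPM of the ligands after Cxcl12 on CDAHFD, with Ccl6 at 99.3 ± 19.4 TPM on CDAHFD and 15.4 ± 2.99 TPM on normal diet and Ccl9 at 96.4 ± 14.7 TPM on CDAHFD and 43.7 ± 3.08 TPM on normal diet (SD, n = 3). Ccl6 had 60.1, 68.3 and 43.5 CPM in CDAHFD livers, against 10.2, 9.90 and 14.3 CPM in normal diet livers (2.32 ± 0.19, adjusted p = 2.41e-06). Ccl9 had 110, 86.5 and 85.7 CPM in CDAHFD livers and 56.5, 48.5 and 60.5 CPM in normal diet livers. It was the smallest called rise of the family, at 0.77 ± 0.13 (adjusted p = 0.000475), yet the groups did not overlap.

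Ccl5, which binds Ccr1 and Ccr3 among others and is made in quantity by cytotoxic lymphocytes, had 9.52, 21.9 and 10.6 CPM on CDAHFD and 1.08, 0.931 and 1.65 CPM on normal diet. CDAHFD replicate 2 stood well above the other CDAHFD libraries, and the change was 3.52 ± 0.36 (adjusted p = 1.19e-05). Ccl4, made by activated macrophages and T cells, showed the same library on top, with 35, 91 and 37 reads on CDAHFD and 1, 0 and 0 on normal diet. The ratio was 127 with a 95% exact interval of 22.4 to 5027 (adjusted p = 3.90e-05). Its close relative Ccl3 had 7, 16 and 9 reads on CDAHFD and 0 in every normal diet library, which is at least 8.28-fold higher. Ccl3 was below the count filter and was not tested.

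The CXC ligands that attract neutrophils through Cxcr2 were all but silent on normal diet, except for Cxcl1. Cxcl1 (ENSMUSG00000029380) had 11.4, 17.8 and 9.86 CPM in CDAHFD livers, against 3.98, 4.21 and 4.25 CPM in normal diet livers, and rose by 1.65 ± 0.22 (adjusted p = 9.04e-05). Cxcl2 was counted 59, 78 and 32 times on CDAHFD and 0, 0 and 1 times on normal diet, a ratio of 131 (95% exact interval 23.2 to 5211, adjusted p = 1.83e-05). Cxcl5 had 13, 22 and 23 reads on CDAHFD and 0 in every normal diet library, at least 15.0-fold higher (adjusted p = 0.000217). Cxcl3 reached only 4, 5 and 2 reads on CDAHFD and 0 on normal diet, at least 2.85-fold higher and not tested. The receptor Cxcr2 had 42, 32 and 41 reads on CDAHFD and 2, 1 and 3 on normal diet, a rise of 3.83 ± 0.45 (adjusted p = 3.82e-05). Cxcr1, its neighbour in the genome, stayed at 2, 7 and 1 reads on CDAHFD and 3, 0 and 3 on normal diet.

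Promoter windows of 300 bases (250 before to 50 after the annotated start) were at hand for 39 of the 52 members from RefSeq, build GRCm38.p6, whereas the reads were aligned to GRCm39. They were searched on both strands for the NF-kB consensus (the binding motif of the main inflammatory transcription factor), for the core of the interferon-stimulated response element, ISRE (GAAA, any 2 bases, GAAA) and for TTCNNNGAA (the gamma-activated site, GAS, bound by STAT factors). The windows of 4 CXC ligands are printed for their NF-kB matches, and that of Cxcl12, which did not pass the test, for comparison. The Cxcl12 window held none of the motifs. Matches to any of these motifs are in capitals, and the sequences run 5′ to 3′ on the gene's strand.
Cxcl1, chr5:90890995-90891294, plus strand: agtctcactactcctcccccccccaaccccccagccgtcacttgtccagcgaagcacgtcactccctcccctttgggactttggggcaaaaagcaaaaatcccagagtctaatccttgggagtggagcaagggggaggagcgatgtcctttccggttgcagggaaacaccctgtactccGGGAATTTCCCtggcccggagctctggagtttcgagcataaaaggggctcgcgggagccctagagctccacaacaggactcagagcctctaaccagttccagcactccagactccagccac
Cxcl2, chr5:90903649-90903948, plus strand: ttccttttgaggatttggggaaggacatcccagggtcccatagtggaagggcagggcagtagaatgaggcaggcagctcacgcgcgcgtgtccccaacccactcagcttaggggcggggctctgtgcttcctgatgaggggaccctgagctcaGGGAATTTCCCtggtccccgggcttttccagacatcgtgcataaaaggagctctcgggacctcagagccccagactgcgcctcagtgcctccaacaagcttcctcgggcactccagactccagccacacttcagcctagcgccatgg
Cxcl3, chr5:90785851-90786150, plus strand: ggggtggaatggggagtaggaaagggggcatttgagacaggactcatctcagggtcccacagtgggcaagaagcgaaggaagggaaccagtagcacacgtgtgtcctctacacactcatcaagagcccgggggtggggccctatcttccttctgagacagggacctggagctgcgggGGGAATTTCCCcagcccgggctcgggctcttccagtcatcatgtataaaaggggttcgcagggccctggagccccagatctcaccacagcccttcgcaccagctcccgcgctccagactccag
Cxcl10, chr5:92348840-92349139, minus strand: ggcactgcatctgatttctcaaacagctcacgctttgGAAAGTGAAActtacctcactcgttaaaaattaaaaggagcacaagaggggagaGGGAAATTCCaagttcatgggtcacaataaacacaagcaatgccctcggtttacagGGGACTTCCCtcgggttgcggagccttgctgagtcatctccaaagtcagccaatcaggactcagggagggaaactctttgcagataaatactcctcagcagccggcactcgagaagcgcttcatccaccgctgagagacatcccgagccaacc
Cxcl12, chr6:117168285-117168584, plus strand: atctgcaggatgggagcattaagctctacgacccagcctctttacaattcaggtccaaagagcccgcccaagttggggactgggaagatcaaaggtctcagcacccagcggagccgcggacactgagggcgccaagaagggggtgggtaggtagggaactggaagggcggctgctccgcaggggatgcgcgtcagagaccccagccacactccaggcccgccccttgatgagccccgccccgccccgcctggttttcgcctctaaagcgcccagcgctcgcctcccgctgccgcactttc

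In Cxcl1, Cxcl2 and Cxcl3 the capitals are overlapping NF-kB matches on both strands, which begin at base -71, -97 and -73 from the annotated start. Cxcl10 held NF-kB matches that begin at -159 and -103 and an ISRE core at -213. The NF-kB consensus was found in 8 of the 39 members with a window (20.5%) and in 5.14% of 27018 genes with a window in the same table. Of those 8, Cxcl1, Cxcl2, Cxcl10 and Ccl9 rose, Cxcl3 was not tested, and Ackr2, Ccl27a and Ccr3 did not pass. A match thus did not go with a call in every case. Most members that rose and had a window held no NF-kB match, among them Ccl6, Ccl22, Cxcl9, Cxcl14, Ccr2 and Cx3cr1. The ISRE core lay in 3 members (Ccl19, Cxcl10 and Cxcl14), 7.69% against 3.99% of all genes with a window, and the GAS in Ccl17 and Cxcl14, 5.13% against 9.55%. A match is a run of letters and not a shown binding site.

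**Figure D2:**
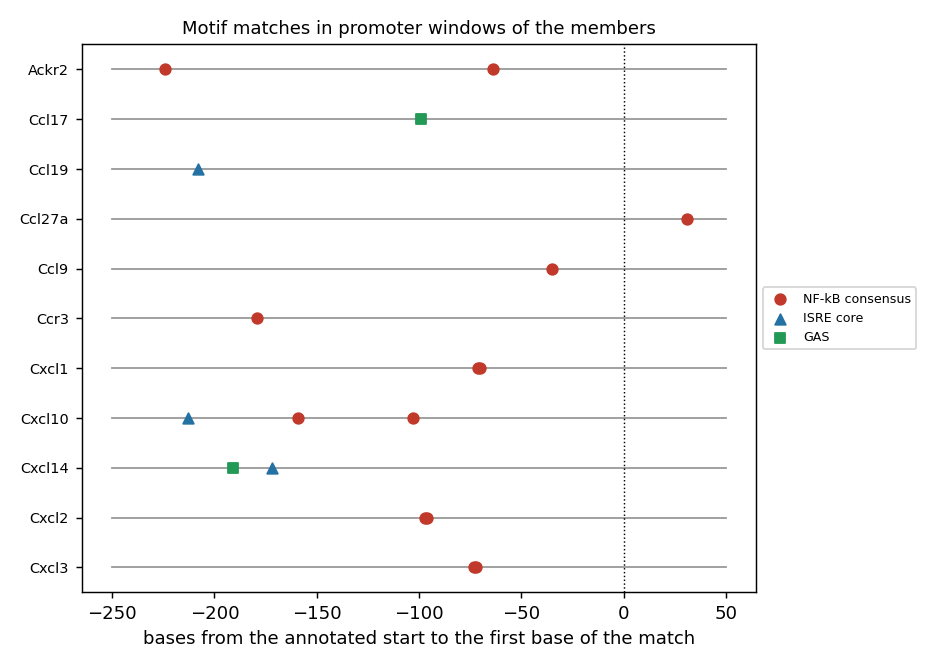
Positions of motif matches in the 300-base promoter windows of the 11 members that held any, in bases from the annotated start (0, dotted line) to the first base of the match, with each grey line spanning the window searched. Cxcl1, Cxcl2, Cxcl3, Ccl9 and Ackr2 have an NF-kB match within 100 bases before the start.

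The Cxcr3 ligands, which are known as interferon-induced and attract activated T and NK cells, differed among themselves. Cxcl9 had 48.1, 70.1 and 37.1 CPM in CDAHFD livers, against 9.97, 15.2 and 18.7 CPM in normal diet livers, and rose by 1.82 ± 0.25 (adjusted p = 0.000108). Cxcl10 had 13.0, 19.0 and 18.1 CPM on CDAHFD and 2.65, 3.18 and 4.40 CPM on normal diet (2.29 ± 0.21, adjusted p = 5.33e-06). Both were clear of overlap. Cxcl11 had 16, 41 and 20 reads on CDAHFD and 10, 15 and 17 on normal diet, with overlap, and did not pass (0.49 ± 0.39, adjusted p = 0.32). RefSeq on GRCm38.p6, the C57BL/6J genome, classes Cxcl11 as a transcribed pseudogene. Cxcr3 rose by 1.99 ± 0.38 (adjusted p = 0.00112), with 45, 71 and 70 reads on CDAHFD and 13, 5 and 18 on normal diet. Ifng, the cytokine that most strongly induces these ligands, had 0, 0 and 1 reads on CDAHFD and 0 in every normal diet library, and a difference was not detectable at this depth.

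Cxcl16 and Cx3cl1 are the chemokines made as membrane-bound proteins. Cxcl16, also a scavenger receptor for oxidized lipoprotein, had 27.1, 28.5 and 32.4 CPM in CDAHFD livers, against 6.29, 5.98 and 6.90 CPM in normal diet livers, and rose by 2.20 ± 0.13 (adjusted p = 2.57e-07). Its receptor Cxcr6, which holds NKT and resident T cells in the liver, had 1.70, 2.47 and 1.64 CPM on CDAHFD and 0.786, 0.49 and 0.95 CPM on normal diet (1.38 ± 0.32, adjusted p = 0.00398). Cx3cl1 had 6.2, 5.72 and 9.16 CPM on CDAHFD and 1.33, 0.539 and 0.95 CPM on normal diet (2.90 ± 0.30, adjusted p = 1.52e-05). The receptor Cx3cr1 (ENSMUSG00000052336), a marker of monocytes and of monocyte-derived macrophages, had 16.6, 14.4 and 20.5 CPM in CDAHFD livers, against 0.835, 0.686 and 0.50 CPM in normal diet livers. It rose by 4.66 ± 0.23 (adjusted p = 8.89e-08). CDAHFD replicate 3 was the highest library for Cxcl16, Cx3cl1 and Cx3cr1, unlike Ccl4 and Ccl5.

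Cxcl14 and Xcr1 rose as well. Cxcl14, a ligand with no settled receptor, had 15.4, 14.8 and 20.1 CPM on CDAHFD and 1.38, 1.62 and 2.7 CPM on normal diet, a rise of 3.14 ± 0.23 (adjusted p = 1.27e-06). Xcr1, the receptor that marks cross-presenting dendritic cells, had 48, 70 and 52 reads on CDAHFD and 6, 10 and 6 on normal diet (2.56 ± 0.32, adjusted p = 6.26e-05). Its ligand Xcl1, made by NK and CD8 T cells, stayed under the count filter with 9, 5 and 5 reads on CDAHFD and 1, 2 and 0 on normal diet, a ratio of 4.92 (95% exact interval 1.45 to 25.9).

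Cxcl12 (ENSMUSG00000061353), the homeostatic ligand that retains leukocytes and stem cells in tissue, had the highest TPM of the ligands on both diets and its change did not pass. It had 323, 323 and 321 CPM in CDAHFD livers, against 373, 320 and 384 CPM in normal diet livers, so the groups overlapped (-0.16 ± 0.11, adjusted p = 0.251). The sign depended on scaling, with 0.17 for total counts and 0.29 for scaling to hepatocyte markers, neither of which passed. Its receptors moved without it. Cxcr4 had 9.15, 7.47 and 9.16 CPM on CDAHFD and 0.589, 0.637 and 0.70 CPM on normal diet, and rose by 3.73 ± 0.22 (adjusted p = 2.32e-07). Ackr3, the atypical receptor that takes up Cxcl12, had 3.24, 2.68 and 4.83 CPM on CDAHFD and 0.786, 0.392 and 1.00 CPM on normal diet (2.30 ± 0.35, adjusted p = 0.000229).

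Among the chemokines of lymphoid tissue, the members went in different directions. Ccr7, which guides dendritic cells and naive T cells to lymph nodes, had 96, 122 and 95 reads on CDAHFD and 10, 6 and 9 on normal diet, and rose by 3.26 ± 0.27 (adjusted p = 2.82e-06). Of its ligands, Ccl19 rose by 1.55 ± 0.43 (adjusted p = 0.0107) with 39, 49 and 30 reads on CDAHFD and 5, 7 and 19 on normal diet, and by 2.33 without normal diet replicate 3. Ccl21a had 4.58, 4.08 and 7.33 CPM on CDAHFD and 3.88, 1.13 and 4.05 CPM on normal diet. The groups just failed to overlap and the change did not pass (0.82 ± 0.38, adjusted p = 0.0898), though it did with total counts, hepatocyte marker scaling and TPM (adjusted p = 0.018, 0.000847 and 0.0188) without the count filter (0.000715) and without normal diet replicate 3 (0.0472). Near-identical copies of Ccl21a exist in the mouse genome, and how the counting dealt with reads they share is not given, so its level is uncertain.

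Cxcl13 and Ccl25 were the called falls. Cxcl13, the B cell attractant, had 0, 40 and 5 reads in CDAHFD livers, against 32, 65 and 67 reads in normal diet livers, and fell by 2.26 ± 0.72 on the log2 scale (adjusted p = 0.0216). The CDAHFD libraries differed widely, and the value was -4.72 without CDAHFD replicate 2 and -3.73 with limma-voom. The call was lost with DESeq2 (adjusted p = 0.198), without CDAHFD replicate 3 (0.0732) and without normal diet replicate 2 (0.0635). Beside it, the summed level of the 6 Kupffer cell markers was 339, 504 and 293 CPM on CDAHFD and 245, 289 and 353 CPM on normal diet, with CDAHFD replicate 2 also on top, and its part in the Cxcl13 result was not tested. Cxcr5, the receptor of Cxcl13, had 11, 12 and 10 reads on CDAHFD and 10, 2 and 3 on normal diet and was not tested.

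Ccl25, the gut and thymus chemokine, had 1.78, 1.79 and 1.71 CPM in CDAHFD livers and 3.98, 4.26 and 3.05 CPM in normal diet livers. It fell by 1.09 ± 0.21 on the log2 scale (adjusted p = 0.00131), with no overlap. Its receptor Ccr9 went the other way, with 32, 37 and 36 reads on CDAHFD and 5, 4 and 11 on normal diet (2.01 ± 0.39, adjusted p = 0.00117). Ccl27a, known as a skin chemokine, had 3.60, 3.40 and 3.55 CPM on CDAHFD and 4.81, 3.48 and 3.60 CPM on normal diet and did not pass (-0.17 ± 0.19, adjusted p = 0.48), and its sign turned to 0.15 with total counts and 0.28 with hepatocyte marker scaling. Ccl28 and the receptor Ccr10 stayed at 29 and 22 reads over all 6 libraries.

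The chemokines of eosinophils and type 2 responses were mixed and low. Ccl22, a macrophage and dendritic cell product that binds Ccr4, had 76, 72 and 51 reads on CDAHFD and 8, 5 and 3 on normal diet, and rose by 3.25 ± 0.37 (adjusted p = 3.01e-05). Ccl17, the other Ccr4 ligand, was read 9 times in CDAHFD replicate 1 and 0 times in the other CDAHFD libraries, against 1, 2 and 0 on normal diet, and Ccr4 had 6, 2 and 3 reads on CDAHFD and 1, 2 and 1 on normal diet. Ccl24, an eotaxin made by macrophages, had 2.51, 4.47 and 1.44 CPM on CDAHFD and 1.67, 2.16 and 3.00 CPM on normal diet and did not pass (0.31 ± 0.37, adjusted p = 0.509). Its value was -0.24 without CDAHFD replicate 2. The eotaxin receptor Ccr3 had 27, 19 and 10 reads on CDAHFD and 2, 7 and 10 on normal diet (1.18 ± 0.54, adjusted p = 0.0874), a change that passed with total counts (adjusted p = 0.0306), hepatocyte marker scaling (0.00737), TPM and without CDAHFD replicate 3 (0.0493) or normal diet replicate 3 (0.0458). Ccl11, Ccl8 and Ccr8 had 19, 21 and 10 reads over all libraries. Ccr8 had none on normal diet and was at least 2.59-fold higher on CDAHFD.

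**Figure D3:**
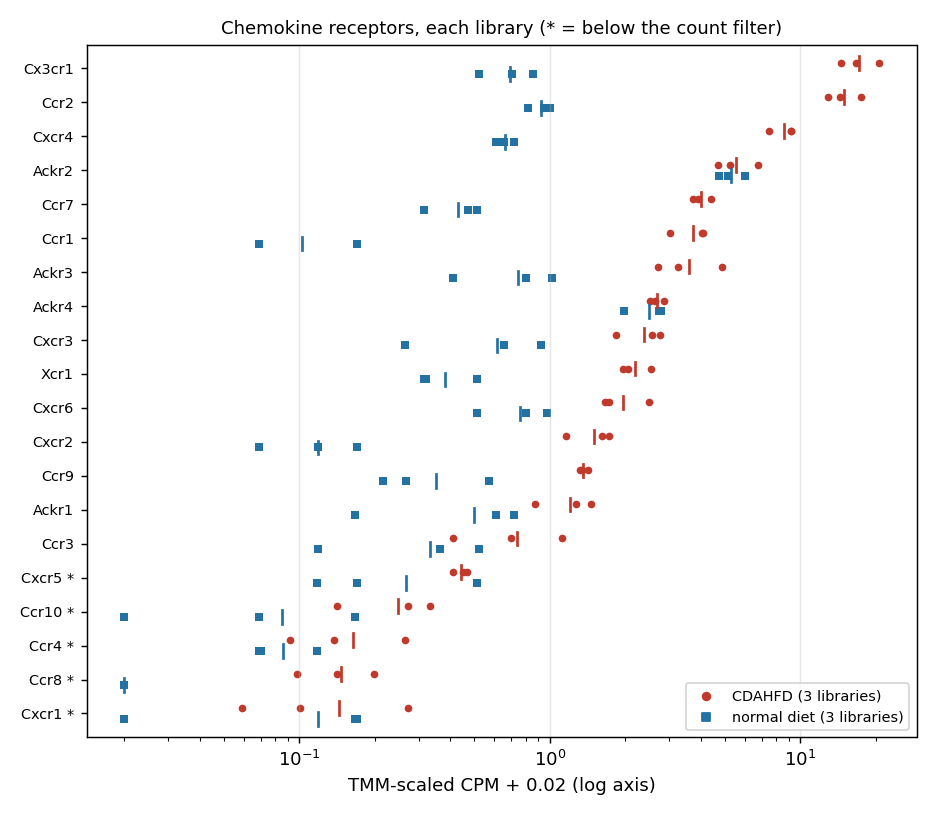
CPM of 20 receptors in each library (log axis, 0.02 added), with CDAHFD in red above normal diet in blue and a bar at each mean. Signalling receptors such as Cx3cr1, Ccr2, Cxcr4 and Ccr1 lie apart between diets, as do the atypical receptors Ackr1 and Ackr3. The atypical receptors Ackr2 and Ackr4 overlap, as do the signalling receptors Ccr3, Ccr4, Ccr10, Cxcr1 and Cxcr5.

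The atypical receptors split. Ackr2, which degrades inflammatory CC chemokines, had 4.66, 6.72 and 5.22 CPM in CDAHFD livers, against 4.71, 5.98 and 5.10 CPM in normal diet livers (0.07 ± 0.19, adjusted p = 0.766). Ackr4, which takes up Ccl19, Ccl21a and Ccl25, had 2.84, 2.61 and 2.49 CPM on CDAHFD and 2.7, 1.96 and 2.75 CPM on normal diet (0.10 ± 0.22, adjusted p = 0.727). Neither passed, and Ackr2 did so only with hepatocyte marker scaling (0.51, adjusted p = 0.0469). Ackr3 rose, as given above. Ackr1, which carries chemokines across venular endothelium and on red cells, had 21, 35 and 37 reads on CDAHFD and 3, 12 and 14 on normal diet (1.30 ± 0.45, adjusted p = 0.0289). The Ackr1 call was lost without CDAHFD replicate 2, CDAHFD replicate 3 or normal diet replicate 1 (adjusted p = 0.0695, 0.0982 and 0.0852).

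Per gene length, the makeup of the chemokine RNA was different on the 2 diets. The 31 ligands summed to 602, 668 and 568 TPM in CDAHFD livers and 216, 212 and 247 TPM in normal diet livers. Cxcl12 made up 20.2% ± 2.18 of this sum on CDAHFD and 47.3% ± 2.41 on normal diet (SD, n = 3), while its own level was 123 ± 3.35 TPM on CDAHFD and 106 ± 5.42 TPM on normal diet. TPM moved the median change of all genes by 0.28 to 0.36 on the log2 scale, and the TMM-scaled change of Cxcl12 was -0.16. Ccl6 made up 16.1% ± 2.13 on CDAHFD and 6.82% ± 0.750 on normal diet, and Ccl9 made up 15.8% ± 2.97 on CDAHFD and 19.5% ± 0.633 on normal diet. The largest 5 ligands held 68.0% on CDAHFD and 82.4% on normal diet. Cxcl12, Ccl6, Ccl9 and Cxcl9 were among them on both diets, with Ccl5 as the fifth on CDAHFD and Ccl21a on normal diet.

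The 21 receptors summed to 75.9, 76.7 and 81.7 TPM in CDAHFD livers and 12.0, 13.4 and 13.9 TPM in normal diet livers. On CDAHFD, Cxcr4 (14.9 ± 2.08 TPM) and Cx3cr1 (12.0 ± 2.48 TPM) were the highest, and Ccr2 (6.87 ± 0.88 TPM) stood above Ccr7 (6.28 ± 0.344 TPM). The SDs of Cxcr4 and Cx3cr1 overlapped, as did those of Ccr2 and Ccr7. On normal diet Ackr2 led with 4.10 ± 0.704 TPM, and Ackr4 had 1.11 ± 0.152 TPM. Ackr2 thus held 7.06% ± 1.23 of the receptor sum on CDAHFD and 31.2% ± 4.61 on normal diet, with its own level at 5.51 ± 0.915 TPM on CDAHFD and 4.10 ± 0.704 TPM on normal diet. Its TMM-scaled log2 change, 0.07, did not pass.

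**Figure D4:**
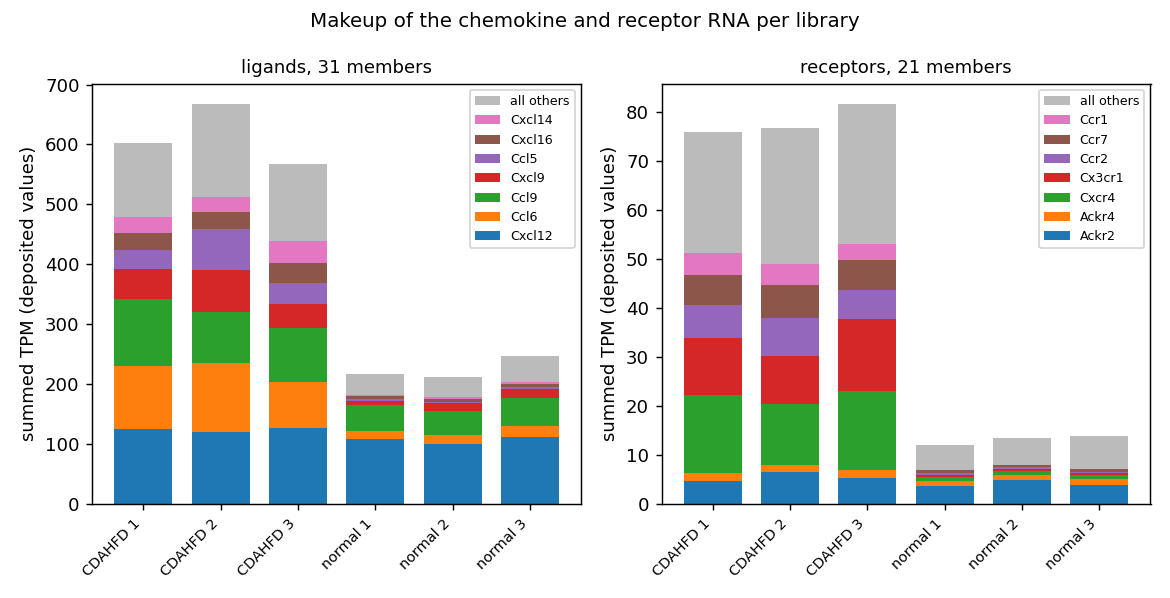
Summed deposited TPM of the 31 ligands (left) and 21 receptors (right) in each library, with 7 members each as coloured blocks and the rest in grey, and the 3 CDAHFD libraries left of the 3 normal diet libraries. The Cxcl12 block averages 123 TPM on CDAHFD and 106 TPM on normal diet, and the sums reach 668 TPM for ligands and 81.7 TPM for receptors on CDAHFD.

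Ligands were set beside their receptors in 33 textbook pairs of the mouse, of which 20 had both partners tested. The pairs share partners and libraries, so they are a description and not separate pieces of evidence. In 13 pairs both partners rose, where 28.5% of all genes tested were called higher. These pairs were Ccl2 and Ccl7 with Ccr2, Ccl5, Ccl6 and Ccl9 with Ccr1, Cxcl1, Cxcl2 and Cxcl5 with Cxcr2, Cxcl9 and Cxcl10 with Cxcr3, Ccl19 with Ccr7, Cxcl16 with Cxcr6, and Cx3cl1 with Cx3cr1. Of these partners, Ccl2, Ccl7, Ccl19, Cxcl2, Cxcl5, Ccr1, Ccr7, Cxcr2 and Cxcr3 were not above the count filter in every normal diet library. They were tested through their CDAHFD libraries, and only the Cxcl16 and Cx3cl1 pairs hold none of them. In 4 pairs the receptor rose and the ligand did not pass: Cxcl12 with Cxcr4 and with Ackr3, Cxcl11 with Cxcr3, and Ccl21a with Ccr7. Ccl25 fell while Ccr9 rose, Ccl5 rose while Ccr3 did not pass, and neither Ccl24 nor Ccr3 passed. No tested receptor fell.

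**Figure D5:**
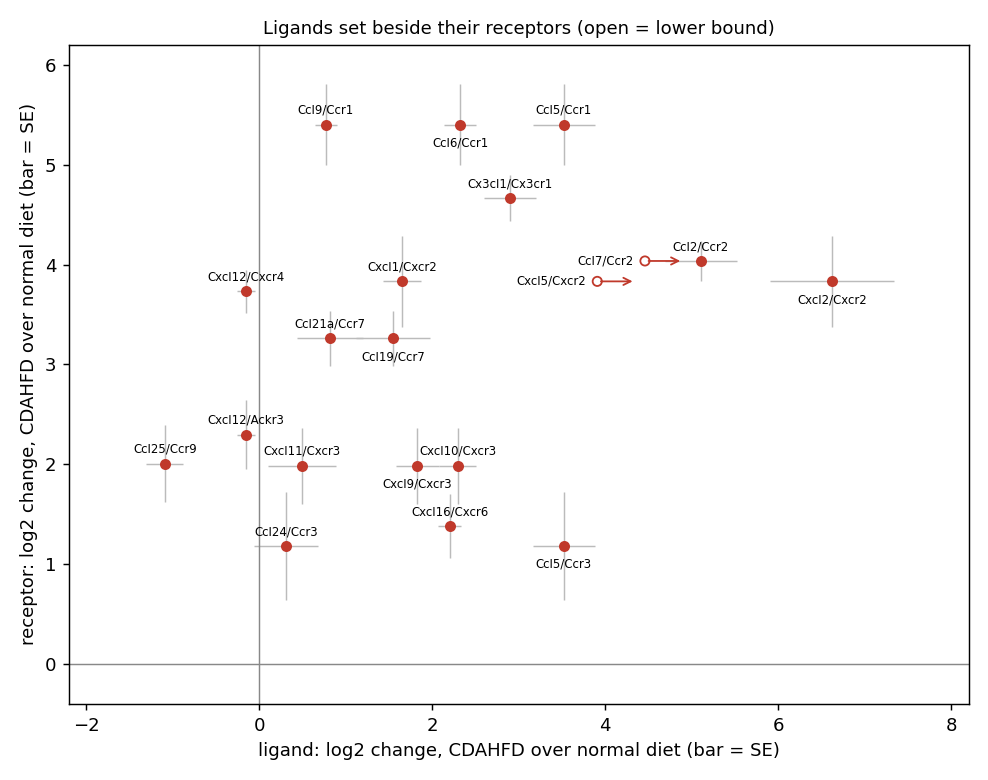
Log2 change of the ligand (horizontal) and of its receptor (vertical) for the 20 pairs with both partners tested, CDAHFD over normal diet, with SE bars. Open circles with an arrow stand at the lower bound of ligands with 0 reads on normal diet. Most pairs lie in the upper right, the Cxcl12 pairs near 0 on the horizontal axis, and Ccl25 with Ccr9 in the upper left.

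Many of these genes lie in clusters of duplicated neighbours, which the symbol rule did not use. In the gene order of RefSeq on GRCm38.p6, allowing at most 10 other genes in between, 11 groups of 2 or more genes with such symbols were found, which include genes below 10 reads. The receptor cluster on chromosome 9 holds Ccr9, Cxcr6, Xcr1, Ccr1, Ccr3 and Ccr2 among others. Of these 6 neighbours 5 rose, by 1.38 (Cxcr6) to 5.40 (Ccr1), and Ccr3 did not pass. On chromosome 11, Ccl5, Ccl9, Ccl6 and Ccl4 rose, while Ccl3 between them was too low to test. Of all genes tested, 28.5% were called higher. Among the neighbours that rose, Ccr9, Xcr1, Ccr1 and Ccl4 were not above the count filter in every normal diet library and were tested through their CDAHFD libraries.

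Neighbours could differ in level. In the monocyte attractant cluster of chromosome 11, Ccl2 stood at 19.0 ± 2.91 TPM and Ccl7 at 4.19 ± 0.965 TPM on CDAHFD. Ccl12, Ccl8 and Ccl11 in the same cluster had 0.896 ± 0.257, 1.01 ± 0.485 and 0.551 ± 0.30 TPM there and were too low to test. In the neutrophil attractant cluster of chromosome 5, Cxcl1 had 21.5 ± 6.29 TPM on CDAHFD, Cxcl2 3.21 ± 1.13, Cxcl5 1.24 ± 0.328 and Cxcl3 0.124 ± 0.0456, and Cxcl15 was counted 0 times. On chromosome 8, Ccl22 and Cx3cl1 rose next to Ccl17, which was not tested.

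Within a diet, ligands were not spread evenly over the libraries. CDAHFD replicate 2 was the highest CDAHFD library for 15 of the 23 tested ligands (65.2%), and for 33.2% of all genes tested. Among the 16 tested receptors it was highest for 6, as was CDAHFD replicate 3. On normal diet, replicate 3 was highest for 15 of the 23 ligands (65.2%) and 10 of the 16 receptors (62.5%), and for 35.2% of all genes tested. T cell markers summed to 14.5, 23.1 and 18 CPM on CDAHFD and 3.34, 4.65 and 7.25 CPM on normal diet, so the same libraries, CDAHFD replicate 2 and normal diet replicate 3, were highest. Both were also highest for the Kupffer cell, platelet and neutrophil marker sums, but not for the other marker lists. For neutrophil markers, CDAHFD replicate 2 (26.6 CPM) barely exceeded replicate 3 (26.5 CPM). The 5 NK cell markers summed to 4.94, 7.15 and 4.99 CPM on CDAHFD and 2.11, 1.32 and 1.75 CPM on normal diet. The part of any of these cell types in the ligand levels was not tested.

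Markers of several leukocytes moved with the family. All 8 monocyte and macrophage markers rose (median 3.49), with sums of 1366 to 1559 CPM on CDAHFD and 152 to 195 CPM on normal diet. Neutrophil markers summed to 20.4 to 26.6 CPM on CDAHFD and 2.11 to 3.25 CPM on normal diet, and all 4 of 8 that were tested rose, while Mpo was at 0 on normal diet and Ly6g had 4 reads on CDAHFD and 1 on normal diet. Of the T cell markers 7 of 8 rose, of the NK cell markers 3 of 4 tested and of the dendritic cell markers 5 of 6. Over all genes tested, 28.5% were called higher. Some leukocyte markers, among them Gpnmb, S100a9 and Cd8a, were below the count filter in every normal diet library and were tested only through their CDAHFD libraries. The dendritic markers summed to 19.6 to 22.5 CPM on CDAHFD and 9.18 to 10.8 CPM on normal diet. With RLE scaling, DESeq2, or without CDAHFD replicate 2 or 3 or normal diet replicate 1 or 2, 4 of these 6 were called higher. All 6 were called higher with total counts, hepatocyte marker scaling, TPM or the replicate block, and without normal diet replicate 3. Of the 5 B cell markers 2 rose, with sums of 5.30 to 6.58 CPM on CDAHFD and 3.09 to 4.27 CPM on normal diet. Of these calls 1 was lost with RLE scaling, no filter, DESeq2 or limma-voom, and without CDAHFD replicate 1 or 2 or normal diet replicate 1 or 2.

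Beside the counts that follow, 28.5% of all genes tested were called higher and 23.5% lower. Of the 6 Kupffer cell markers, whose sums overlapped between diets, Cd5l and Marco rose (33.3%, near the share of all genes) and 0 fell. Without CDAHFD replicate 2, 1 was called higher and 3 lower, without the count filter 2 were called higher and 2 lower, and with DESeq2, limma-voom or without normal diet replicate 1, 1 was called higher. Marco had 250, 1340 and 297 reads on CDAHFD and 79, 178 and 166 on normal diet, and Timd4, which did not pass, 159, 290 and 95 on CDAHFD and 161, 216 and 238 on normal diet. Of 6 eosinophil, basophil and mast cell markers only Siglecf could be tested, and it rose, while Cpa3, Mcpt8 and Ms4a2 were at 0 on both diets and sums were 1.91 to 3.40 CPM on CDAHFD and 0.147 to 0.40 CPM on normal diet. All 6 stellate cell markers rose, with sums of 646 to 743 CPM on CDAHFD and 265 to 315 CPM on normal diet, and all 4 tested cholangiocyte markers, with sums of 18.8 to 28.3 CPM on CDAHFD and 4.56 to 8.70 CPM on normal diet. Of 6 endothelial markers 1, Lyve1, rose, with sums of 300 to 338 CPM on CDAHFD and 282 to 312 CPM on normal diet, but 4 of 6 were called higher with total counts, hepatocyte marker scaling or TPM, and 1 was called lower without CDAHFD replicate 3. Of 2 tested platelet markers 1 rose and 1 fell (sums 4.66 to 5.58 CPM on CDAHFD and 3.48 to 4.65 CPM on normal diet). The platelet rise was lost without CDAHFD replicate 2 or normal diet replicate 1 or 2, and the fall with hepatocyte marker scaling. Of 9 hepatocyte markers 7 fell and 0 rose (sums 98587 to 111869 CPM on CDAHFD and 137170 to 155633 CPM on normal diet, TMM-scaled). Most of these falls depended on the scaling: 3 were called lower and 1 higher with total counts, and 1 lower and 1 higher with hepatocyte marker scaling or TPM. The part of any of these cell types in the chemokine results was not tested.

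Genes that act with the chemokine receptors were mostly higher as well. Among the chemokines and receptors named outside the symbol rule, 5 of 6 tested rose and 1, the endothelial scavenger Gpr182, did not pass. Pf4, a platelet chemokine of the CXC class, rose by 2.60 ± 0.39, the oxysterol receptor gene Gpr183 by 2.51 ± 0.29, the atypical receptor gene Ccrl2 by 1.64 ± 0.22 and the chemerin receptor gene Cmklr1 by 1.4 ± 0.14. Of 20 genes that carry the receptor signal to the cytoskeleton 16 rose and 0 fell (median 2.12), where 28.5% of all genes tested were called higher. Those with the largest changes were the leukocyte genes Pik3r5 (3.09 ± 0.21), Coro1a (2.97 ± 0.24), Plcb2 (2.46 ± 0.31) and Dock2 (2.40 ± 0.17). The 4 that did not pass were Gnai3, Plcb3, Rac1 and Rhoa, but 19 of 20 were called higher with total counts, hepatocyte marker scaling or TPM.

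Of 11 tested genes that switch the receptors off, 10 rose and 1 fell (median 1.06). Over all genes tested, 28.5% were called higher and 23.5% lower. Rgs1, a regulator of G protein signalling in lymphocytes, rose by 2.57 ± 0.28, Rgs19, Rgs10 and Rgs2 by 2.35 ± 0.29, 2.33 ± 0.22 and 2.29 ± 0.16, while Rgs16 fell by 1.56 on the log2 scale. Of 10 tested proteases that cut or shed chemokines, 8 rose and 1, the carboxypeptidase gene Cpn1, fell (-0.37, adjusted p = 0.0175, median of the list 1.52). No protease was called lower with total counts, hepatocyte marker scaling or TPM. Mmp12, the macrophage elastase, had 222 ± 30.3 CPM in CDAHFD livers and 0.231 ± 0.0775 CPM in normal diet livers (9.88 ± 0.22), and Mmp13, Mmp2 and Mmp9 rose by 5.23 ± 0.26, 3.05 ± 0.26 and 1.64 ± 0.40. Dpp4, which inactivates Cxcl12 and other chemokines, did not pass (-0.34, adjusted p = 0.0840).

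In the NF-kB list 13 of 16 genes rose and 0 fell (median 1.03), led by Tnf (4.03 ± 0.50), Il1b (2.65 ± 0.38), Relb (2.61 ± 0.21) and Nfkbie (2.13 ± 0.21). Rela, Nfkbia and Myd88 did not pass, but 15 of 16 were called higher with total counts, hepatocyte marker scaling or TPM. In the interferon-gamma list 11 of 14 tested genes rose and 1 fell (median 1.00). Cd274, Gbp2, Irf8 and Gbp5 rose by 2.23 ± 0.27, 2.20 ± 0.20, 2.06 ± 0.18 and 1.78 ± 0.25, whereas Iigp1, an immunity-related GTPase, fell by 0.63 on the log2 scale (adjusted p = 0.00879), a call that was lost with total counts, hepatocyte marker scaling and TPM. Of all genes tested, 28.5% were called higher and 23.5% lower, and the median was 0.01.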

How the data were processed

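Per the submitters' processing notes, reads were aligned with STAR 2.7.11a to GRCm39; these notes name no counting tool, annotation or strand setting. The authors deposited raw read counts per Ensembl gene, and TPM, which scale each library to one fixed sum after division by gene length. Per the labels' protocols, total RNA went into a stranded, ligation-based mRNA kit. Columns were matched to samples by diet prefix and replicate number.

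Of 56847 gene IDs, 51911 had a symbol in the name table. Genes were kept with edgeR's filterByExpr (minimum count 10), which left 14215, scaled by TMM and tested with edgeR 4.0.16 in R 4.3.3 (glmQLFit, glmQLFTest) with diet as the term, Benjamini-Hochberg adjustment and a threshold of 0.05. SE is the coefficient over the root of F. The pipeline was tested on simulated data. Lower bounds take 3 reads over a group as the limit of detection, and intervals are 95% exact conditional intervals of 2 counts, which cover counting error only. Library pairs within a diet differed by 19.4 to 41.8 times the sampling noise (chi-square per degree of freedom), so none was deposited more than once.

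Alternatives were RLE, total count and hepatocyte marker scaling, no filter, a filter of 1 CPM in 3 libraries, DESeq2 1.42.0, limma-voom and limma (3.58.1) on log2(TPM + 1) and log2(TPM + 0.1), a replicate block, and leaving out each library. Values are given per library for members with a mean of at least 1 CPM, or called with at least 30 reads, and for their partners. Other members are given by counts. From each other list, up to 4 called genes of at least 1 CPM with the largest change are named. Genes that did not pass or that fell in those lists, Ifng, and the marker genes named for a zero, a low count or a call were chosen after their values were seen, as were the printed promoters. The members and lists were chosen with earlier results of these data known. No paired model was used as the main one. The values of 1 member, which stays in the counts and sums over the family, are not reported here.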

Additional observations from a re-analysis of the deposited data

How the results depend on the processing

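Among single members, 587 values under the alternatives kept their direction and their side of the threshold, 15 passed newly, 6 no longer passed and 11 turned sign. The members called higher numbered 26 (a filter of 1 CPM in 3 libraries) to 33 (hepatocyte marker scaling, and no filter), and 28 to 31 when each library was left out. Members called lower stayed at 2, except for 1 with DESeq2 and 1 to 2 when each library was left out. Over all genes, 6258 were called higher and 1147 lower with total counts, 7125 and 713 with hepatocyte marker scaling, 6449 and 897 with log2(TPM + 1), and 6433 and 897 with log2(TPM + 0.1), against 4057 and 3347 in the TMM-scaled test. Of the other pathway genes, 1 was called lower under each of these 4 settings, against 3. The median change of the tested ligands, 2.20 as reported, was 2.52, 2.65, 1.79 and 2.54 under the same 4 settings. That of the tested receptors, 2.15 as reported, was 2.48, 2.60, 1.36 and 2.40, with 2.45 under the 1 CPM filter and 1.97 to 2.51 when each library was left out. The pseudocount of 1 shrinks changes of low genes.

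Signs turned only for members that did not pass. Ccl27a changed by 0.15 with total counts, 0.28 with hepatocyte marker scaling, 0.17 with log2(TPM + 1) and 0.20 with log2(TPM + 0.1), and Cxcl12 by 0.17, 0.29, 0.21 and 0.21. When each library was left out, Ackr2 ranged from -0.12 to 0.18, Ackr4 from -0.043 to 0.18 and Ccl24 from -0.24 to 0.60. Cxcl11 passed with hepatocyte marker scaling alone (0.92, adjusted p = 0.0485). The cause of these shifts was not tested.

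Deviations of same-numbered libraries from the mean of their diet correlated at -0.0471, 0.0688 and 0.118 across genes. Differently numbered libraries correlated at -0.145 to 0.0889. Deviations within a diet cancel out, so these values cannot show whether the replicate numbers pair the libraries. With the replicate block, 30 members were called higher and 2 lower, Ccl21a passed (0.90, adjusted p = 0.0176), and 1 of the 2 B cell marker calls was lost. Low counts limit the 13 untested members and the folds of genes near 0 on normal diet.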
